A study of Mus musculus with 19 samples.

Results

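A set of 10 cytokine and receptor genes that type 1 conventional dendritic cells (DC1) use, or are thought to use, when they prime T cells were followed across sorted mouse DC1 that lacked or carried the transcription factor gene Batf3. The genes were Il12a, Il12b, Ebi3 and Il27 of the IL-12 family, Il15 with its receptor chain Il15ra, the inflammatory cytokines Il18, Il1b and Tnf, and the IL-23 receptor chain Il23r. They were chosen by name, and each was read from its brightest probe set that carries that symbol alone. All 10 were found on both array types, out of 22180 named genes on the spleen arrays and 19938 on the lymph node arrays.

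DC1 present antigen to CD8 T cells and are a main source of IL-12 in mice. IL-12 joins the chains encoded by Il12a (p35) and Il12b (p40), IL-23 joins p40 to the Il23a chain, and IL-27 joins the chains encoded by Il27 and Ebi3, so the loss of either partner leaves no dimer of that kind. IL-15 is shown to NK cells and CD8 T cells while bound to the IL-15 receptor alpha chain on the surface of the cell that makes it, so both genes are read together.

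All mice were on the C57Bl/6j background and the cells came from pathogen-free housing without a stated treatment. Irf8VENUS is a fluorescent reporter of Irf8, the gene of the other transcription factor on which DC1 depend. From spleens of female mice there were 3 arrays of Batf3-/- Irf8VENUS+ DC1, 3 of WT (wild type) Irf8VENUS+ DC1 and 2 of WT Irf8VENUS- DC1, sorted as B220- SiglecH- CD11c+ MHCII+ cells with CD24, XCR1 or both, and the protocol lists them as CD172a+. Replicate 3 of both Irf8VENUS+ spleen groups was sorted on CD24 alone. From skin-draining lymph nodes (SDLN; inguinal, cervical and brachial) there were 3 arrays of Batf3-/- migratory DC1, 2 of WT migratory DC1, 3 of Batf3-/- resident DC1 and 3 of WT resident DC1, all Irf8VENUS+ and sorted as CD24+ CD172- EpCam- cells. Migratory DC1 reach the node from the skin and were gated as MHCIIhi CD11cint, whereas resident DC1 were gated as MHCIIint CD11chi. The labels give no ages and do not say how many mice stand behind an array or a group, so p-values speak only to the variation among these arrays, which may be technical. Each lymph node array has in its title 1 of 3 codes, called a, b and c here, that go with replicates 1, 2 and 3, and the labels do not say what they mark.

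Values are log2 intensities, and the spleen and lymph node tables were tested only within themselves. Each probe set binds its own target, so levels are compared between groups for a gene and never between genes. Batf3 itself was 5.87 to 6.17 in Batf3-/- migratory DC1 and 9.15 to 9.23 in WT migratory DC1, 5.50 to 5.96 in Batf3-/- resident DC1 and 8.15 to 8.62 in WT resident DC1, and in spleen 5.29 to 7.08 in Batf3-/- DC1 against 9.64 to 10.41 in WT Irf8VENUS+ DC1. The DC1 markers were weaker in the migratory gate: Xcr1 was 5.83 to 6.46 in Batf3-/- migratory, 7.85 to 8.07 in WT migratory, 9.53 to 10.20 in Batf3-/- resident and 11.05 to 11.34 in WT resident DC1, and 19 of 21 tested genes of a DC1 identity list were lower in WT migratory than in WT resident cells (limma, adjusted p under 0.05). The chemokine receptor gene Ccr7, which brings dendritic cells into the node, was 12.08 to 12.66, 11.31 to 12.07, 9.53 to 10.63 and 7.99 to 8.88 in the same order of groups, and 17 of 22 maturation genes were higher in WT migratory than in WT resident cells. Of all 11931 genes tested, 49.2% were called between those WT gates, 1903 higher and 3967 lower. In Batf3-/- against WT migratory DC1, 2 of the 21 identity genes, which include Batf3, were called higher and 8 lower. Of the 22 maturation genes 5 were higher and none lower there, where 9.41% of all genes were called. In resident DC1 8 of the 21 were lower and none higher, and 1 of the 22, Ccr7 (1.62 ± 0.31), was higher. There 1.84% of all genes were called. In bulk samples such as these, fewer cells of a type and less RNA per cell cannot be told apart.

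The filter on dim genes asked for 2 or more arrays at or above the median of all values in the table, a log2 intensity of 4.82 in SDLN and 5.04 in spleen. In SDLN 9 of the 10 genes passed, and Il12a did not. Il23r passed only through its migratory arrays, so in the tests of migratory against resident cells it had to differ. Differences are log2 differences from limma with their standard error (SE), and a gene was called at a Benjamini-Hochberg adjusted p under 0.05 over all genes tested.

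In Batf3-/- lymph node DC1, 7 of the 9 tested genes differed between migratory and resident cells, 5 higher and 2 lower, where 36.6% of all 11931 genes tested were called. In WT DC1 it was also 7 of 9, 4 higher and 3 lower, where 49.2% of all genes were called. Both counts include Il23r, whose place in them the filter fixed. Between Batf3-/- and WT cells 2 of 9 were called in migratory DC1, where 9.41% of all genes were called, and 0 of 9 in resident DC1, where 1.84% were called and 4 of the 9 had an unadjusted p under 0.05, as did 1146 of all 11931 genes. These lymph node comparisons share arrays with each other, so they are not independent.

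**Figure D1:**
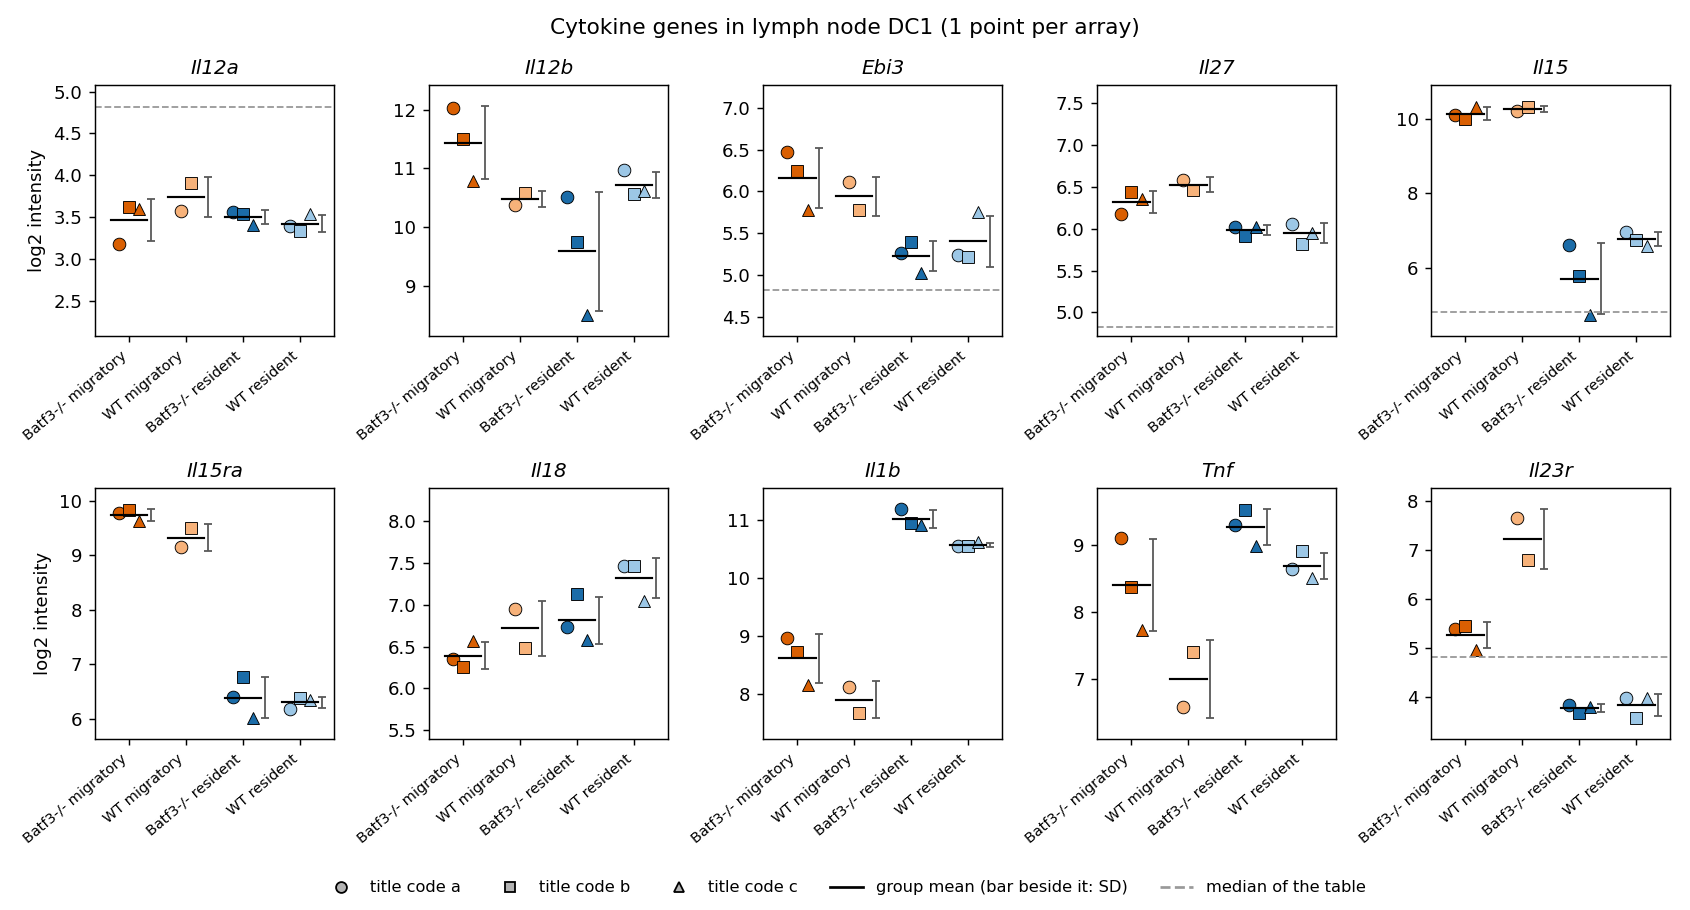
Log2 intensity (y axis, 1 panel per gene with its own range) of the 10 genes in Batf3-/- migratory, WT migratory, Batf3-/- resident and WT resident lymph node DC1; each point is an array, the line is the group mean, the bar beside it the SD, and the shape gives the code in the array's title. Il15 and Il15ra separate the migratory from the resident arrays without overlap, Il1b does so the other way, and Il23r is highest in WT migratory DC1.

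Il12b, the p40 chain shared by IL-12 and IL-23, was the IL-12 family gene that moved most. In Batf3-/- DC1 it was 1.85 ± 0.41 (SE) higher in migratory than in resident cells on the log2 scale, a 3.60-fold difference (limma, adjusted p = 0.0035), while in WT DC1 the difference was -0.24 ± 0.46 (adjusted p = 0.693). In replicate order, Batf3-/- migratory DC1 had log2 intensities of 12.03, 11.50 and 10.79, WT migratory DC1 10.38 and 10.58, Batf3-/- resident DC1 10.52, 9.75 and 8.51, and WT resident DC1 10.97, 10.57 and 10.62. The Batf3-/- migratory arrays were thus the highest of all 4 groups but for replicate 3, which lay below 1 WT resident array, and the Batf3-/- resident arrays were the lowest apart from replicate 1, which lay above 1 WT migratory array. Arrays of one title code kept the direction, with migratory minus resident differences of 1.51, 1.75 and 2.28 in Batf3-/- cells under codes a, b and c.

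Between genotypes, Il12b pointed in opposite directions in the 2 gates, but neither difference passed the test. It was 0.95 ± 0.46 higher in Batf3-/- than in WT migratory DC1 (limma, adjusted p = 0.184; 95% confidence interval -0.04 to 1.95) and -1.13 ± 0.41 from WT in Batf3-/- resident DC1 (adjusted p = 0.304; interval -2.02 to -0.24), with no overlap between the genotypes in either gate. The test of the difference between those 2 effects gave 2.08 ± 0.62 and an adjusted p of 0.108. The resident difference varied between codes, at -0.46 under a, -0.82 under b and -2.12 under c, and was largest for Batf3-/- resident replicate 3. The difference between effects was called without Batf3-/- migratory replicate 3 (2.41; adjusted p = 0.0236). With the title code as a block, and so the replicate number, the migratory genotype difference was 1.26 (adjusted p = 0.0177) and the difference between effects 2.39 (adjusted p = 0.0185), and both were called. With the SD of all values on an array as a term, whose values by group are given with Tnf, the migratory genotype difference of Il12b was -0.62 and the WT difference between gates 2.36, neither of them called.

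Il12a, the p35 chain that makes p40 into IL-12, lay below the table median on every lymph node array. It was 3.18 to 3.62 in Batf3-/- migratory, 3.57 to 3.91 in WT migratory, 3.40 to 3.56 in Batf3-/- resident and 3.34 to 3.54 in WT resident DC1. Il23a, the partner of p40 in IL-23, was likewise low on every array, between 3.75 and 4.44. The tables give no background per probe, so a level this low cannot be set apart from absence.

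Ebi3, the chain that IL-27 shares with IL-35, was also higher in migratory Batf3-/- cells. It was 6.47, 6.24 and 5.77 in Batf3-/- migratory DC1, 6.11 and 5.78 in WT migratory DC1, 5.26, 5.39 and 5.03 in Batf3-/- resident DC1 and 5.24, 5.22 and 5.75 in WT resident DC1. Migratory cells were above resident cells in both genotypes without overlap, by 0.93 ± 0.20 in Batf3-/- DC1 (limma, adjusted p = 0.00304) and by 0.54 ± 0.23 in WT DC1, where the adjusted p was 0.0658. The WT difference passed the test without WT resident replicate 3, at 0.72 with an adjusted p of 0.0276.

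Il27, the other chain of that dimer, spanned little: group means ran between 5.95 and 6.53. It was 6.17, 6.44 and 6.35 in Batf3-/- migratory DC1 and 6.59 and 6.47 in WT migratory DC1, against 6.02, 5.91 and 6.02 in Batf3-/- resident DC1 and 6.06, 5.82 and 5.95 in WT resident DC1. The migratory arrays lay above the resident ones in both genotypes, by 0.34 ± 0.13 in Batf3-/- DC1, where it was not called (limma, adjusted p = 0.0603), and by 0.58 ± 0.15 in WT DC1, where it was (adjusted p = 0.00591). With the SD of all values on an array as a term, the WT difference was 0.30 and not called (adjusted p = 0.63). The Batf3-/- difference was called without Batf3-/- migratory replicate 1, at 0.41 with an adjusted p of 0.047. Neither Ebi3 nor Il27 was called between genotypes in either gate, with adjusted p between 0.361 and 1.

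Of 11 tested partners and receptors of the IL-12 family, 2 were higher and 2 lower in Batf3-/- migratory than in Batf3-/- resident DC1, and 1 was higher and 4 were lower in WT cells, counts near the shares of all genes called (36.6% and 49.2%). Stat4, which relays the IL-12 receptor signal, was 2.78 ± 0.21 higher in Batf3-/- migratory DC1 (limma, adjusted p = 8.22e-07) and 2.70 ± 0.23 higher in WT migratory DC1 (adjusted p = 3.57e-06). Il12rb2, the signalling chain of the IL-12 receptor, was lower, at -0.83 ± 0.24 in Batf3-/- cells and -2.45 ± 0.27 in WT cells. Il6ra, the IL-6 receptor chain that shares the gp130 partner with IL-27, was also lower, at -1.84 ± 0.28 and -2.24 ± 0.31 in Batf3-/- and WT cells. Between Batf3-/- and WT migratory DC1, 4 of the 11 were higher and none was lower, where 9.41% of all genes were called in either direction, led by the kinase gene Tyk2 at 1.495 ± 0.32 and by Il6st, which encodes gp130, at 1.44 ± 0.26.

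Genes that drive IL-12 in dendritic cells moved in both directions. In Batf3-/- migratory against resident DC1, 5 of 15 were higher and 6 lower, and in WT DC1 2 were higher and 8 lower, where 36.6% and 49.2% of all genes were called. Cd40, the receptor through which T cells license dendritic cells, was higher by 1.48 ± 0.20 in Batf3-/- and 1.36 ± 0.23 in WT migratory DC1. Irf1, an interferon-induced transcription factor, was higher by 1.44 ± 0.19 and 1.32 ± 0.21 in the same 2 groups. Tlr3, the sensor of double-stranded RNA, was lower, at -5.02 ± 0.22 and -4.41 ± 0.24, and Tlr12, a sensor of parasite profilin in mice, at -3.08 ± 0.25 and -2.96 ± 0.28. In migratory cells, 5 of the 15 were higher and 1 lower in Batf3-/- than in WT DC1, where 9.41% of all genes were called. These included the adaptor Myd88 (1.26 ± 0.31), Irf8 (1.24 ± 0.21) and, lower, Tlr3 (-1.20 ± 0.24).

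Il15 and Il15ra separated the gates clearly, with the migratory cells far above the resident ones whichever the genotype. Il15 was 21.2-fold higher in migratory than in resident Batf3-/- DC1 (log2 difference 4.41 ± 0.35; limma, adjusted p = 1.29e-06) and 11.2-fold higher in WT DC1 (3.48 ± 0.39; adjusted p = 2.31e-05). Il15ra was 10.2-fold higher in Batf3-/- migratory DC1 (3.35 ± 0.20; adjusted p = 1.52e-07) and 8.10-fold higher in WT migratory DC1 (3.02 ± 0.22; adjusted p = 1.04e-06).

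The Il15 log2 intensities were 10.10, 9.99 and 10.32 in Batf3-/- migratory DC1, 10.21 and 10.32 in WT migratory DC1, 6.63, 5.80 and 4.75 in Batf3-/- resident DC1 and 6.98, 6.75 and 6.60 in WT resident DC1. All 5 migratory arrays lay between 9.99 and 10.32 whichever the genotype, and both resident groups lay far below them. Batf3-/- resident DC1 were -1.05 ± 0.35 from WT resident DC1, a difference that did not pass the test (limma, adjusted p = 0.224) and that was -0.35, -0.95 and -1.85 under title codes a, b and c. Without Batf3-/- resident replicate 1, whose value fell among the WT ones, it was -1.502 with an adjusted p of 0.0237. In migratory cells the genotypes differed by -0.13 ± 0.39 (adjusted p = 0.855; interval -0.97 to 0.72).

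Il15ra was 9.78, 9.83 and 9.62 in Batf3-/- migratory DC1, 9.15 and 9.50 in WT migratory DC1, 6.40, 6.76 and 6.01 in Batf3-/- resident DC1 and 6.18, 6.38 and 6.35 in WT resident DC1. The resident genotypes overlapped (0.09 ± 0.20), and the Batf3-/- migratory arrays all lay above the WT ones by a difference that did not pass the test (0.42 ± 0.22; limma, adjusted p = 0.216). Within title codes, migratory minus resident differences of Il15 were 3.47, 4.19 and 5.57 in Batf3-/- cells (a, b, c) and 3.23 and 3.56 in WT cells (a, b), and those of Il15ra were 3.38, 3.07 and 3.61 and then 2.96 and 3.12, so both genes kept their direction within every code, with Il15 in Batf3-/- cells varying most in size.

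Sequences of gene starts are given for the genes whose levels differed most and for which the RefSeq table (GRCm38.p6) holds a window, from 250 bases before to 50 bases after the start. Of the 10 genes 8 have at least 1 window, and Il15 and Il27 have none there. The motifs searched were 3, each on both strands: TGANTCA (the AP-1 core, to which BATF3 with a JUN partner can bind), GAAANNGAA (interferon response type) and GGAANNTCC (NF-kB type core). They occur in 7.81%, 8.56% and 4.26% of all 32851 windows. Il15ra has 2 windows, and its second, at chr2:11705462-11705761 on the plus strand, holds TGAGTCA from position -30 and GAAAGCGAA from position 31, which do not overlap and are shown in capitals.
Il15ra: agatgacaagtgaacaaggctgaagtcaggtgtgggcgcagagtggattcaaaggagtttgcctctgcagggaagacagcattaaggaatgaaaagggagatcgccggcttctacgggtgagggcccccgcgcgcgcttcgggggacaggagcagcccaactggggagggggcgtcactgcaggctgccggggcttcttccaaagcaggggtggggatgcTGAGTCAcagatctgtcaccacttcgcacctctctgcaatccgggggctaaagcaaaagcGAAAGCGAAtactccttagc
The first Il15ra window holds 1 match, to GAAANNGAA on the minus strand from position -149. A match describes the letters of the window and was not tested for binding.

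A list of IL-2 and IL-15 receptor chains and signalling genes also holds chains of related receptors, among them Il21r, Il7r and Il4ra. Of its 7 tested genes, 4 were higher and none was lower in migratory than in resident DC1. By count this was the same in Batf3-/- and in WT cells, where 36.6% and 49.2% of all genes were called. Il21r, which pairs with the same common gamma chain, was 3.12 ± 0.32 higher in Batf3-/- migratory DC1 (limma, adjusted p = 1.08e-05) and 4.11 ± 0.36 higher in WT migratory DC1 (adjusted p = 4.25e-06). Il7r, the IL-7 receptor chain, was higher by 2.84 ± 0.35 and 3.31 ± 0.39. The medians of the 7 were 1.54 in Batf3-/- and 1.09 in WT cells, against -0.02 and -0.16 over all genes tested. Il2rb, the beta chain through which a responding cell receives IL-15, was 5.71 to 6.76 in Batf3-/- migratory, 5.41 to 5.71 in WT migratory, 6.05 to 6.79 in Batf3-/- resident and 5.03 to 5.54 in WT resident DC1.

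**Figure D2:**
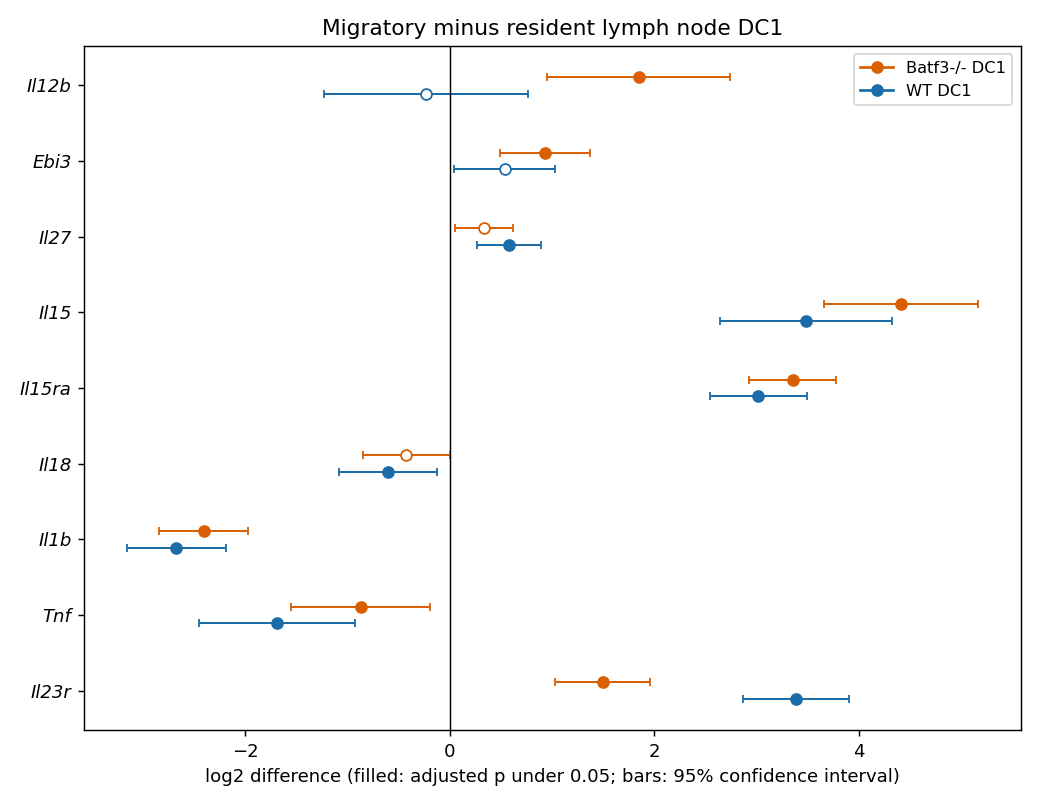
Migratory minus resident log2 difference (x axis) for the 9 tested genes in Batf3-/- (orange) and WT (blue) lymph node DC1, with 95% confidence intervals; filled points have an adjusted p under 0.05. Il15 and Il15ra lie above 3 and Il1b below -2 in both genotypes, while Il12b is at 1.85 in Batf3-/- and -0.24 in WT cells and Il23r at 1.49 and 3.39. The filter fixed in advance that Il23r would differ.

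Il23r encodes the chain that makes the IL-12 receptor beta 1 chain into a receptor for IL-23, and it is best known from innate lymphoid cells and T cells that make IL-17. In these arrays it set WT migratory DC1 apart from the other groups. Its log2 intensities were 5.38, 5.46 and 4.96 in Batf3-/- migratory DC1, 7.66 and 6.79 in WT migratory DC1, 3.84, 3.68 and 3.79 in Batf3-/- resident DC1 and 3.97, 3.57 and 3.97 in WT resident DC1. Both WT migratory arrays lay above all others, the Batf3-/- migratory arrays lay between them and the resident arrays, and the resident genotypes overlapped below the table median.

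In migratory cells Il23r was 3.89-fold lower in Batf3-/- than in WT DC1, a log2 difference of -1.96 ± 0.24 (limma, adjusted p = 0.00186), and -2.28 and -1.33 under title codes a and b. In resident cells the difference was -0.07 ± 0.21 (adjusted p = 1). The effect of the genotype differed between the gates by -1.89 ± 0.32 (adjusted p = 0.0212), and 1 of the 9 genes was called in that test, where 1.24% of all genes were. Both resident groups lay below the table median, where a genotype difference could hardly show, so this value largely repeats the migratory difference. Migratory cells were above resident cells by 1.49 ± 0.21 in Batf3-/- DC1 and by 3.39 ± 0.24 in WT DC1. The filter fixed in advance that they would differ, so no p-value is given for these differences. Because the resident levels sit below the median, where intensities are compressed, these differences can understate the fold. The call on the difference between effects was lost without Batf3-/- resident replicate 1 or 2 or WT resident replicate 2 or 3 (adjusted p between 0.0507 and 0.074). Without WT migratory replicate 1 it was -1.46 with an adjusted p of 0.0632, and the genotype difference in migratory cells was -1.52 and still called (0.0133). That genotype call was lost with the SD of all values on an array as a term (-1.79; adjusted p = 0.101) and when the migratory groups alone were fitted (-1.96; 0.0663).

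Markers of gamma delta T cells and group 3 innate lymphoid cells, which carry the IL-23 receptor, were followed beside it. The mean log2 level of 11 such markers was 5.04 to 5.46 in Batf3-/- migratory, 5.36 to 5.73 in WT migratory, 5.10 to 5.33 in Batf3-/- resident and 4.84 to 4.89 in WT resident DC1. Of 8 tested, 2 were higher in WT migratory than in WT resident cells (Cd3g by 1.73 ± 0.64 and Blk by 1.07 ± 0.25), a smaller share than the 49.2% of all genes called there, and 0 of 8 were called by limma between Batf3-/- and WT migratory DC1 (1 at an unadjusted p under 0.05). Il17a was 4.39 to 4.93, 4.58 to 5.00, 4.30 to 4.65 and 4.32 to 4.51 in the same order of groups. B cell markers also stood higher in WT migratory DC1, with 8 of 9 called above WT resident DC1. Their mean log2 level over 10 markers was 4.75 to 5.65 in Batf3-/- migratory, 5.54 to 6.23 in WT migratory, 4.34 to 4.53 in Batf3-/- resident and 4.23 to 4.54 in WT resident DC1. Between Batf3-/- and WT migratory DC1, 2 of the 9 were called lower (Cxcr5, -1.73 ± 0.37, and Ms4a1, -1.30 ± 0.26), where 9.41% of all genes were called. At an unadjusted limma p under 0.05 there were 5 of the 9, and 3574 of all 11931 genes. Of 10 tested T cell markers, 3 were higher in WT migratory than in WT resident DC1, and 0 were called between migratory genotypes. The part of these markers in the Il23r result was not tested.

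The Il23r window, at chr6:67491806-67492105 on the minus strand, holds none of the 3 motifs and is shown because this gene carried the largest difference between genotypes.
Il23r: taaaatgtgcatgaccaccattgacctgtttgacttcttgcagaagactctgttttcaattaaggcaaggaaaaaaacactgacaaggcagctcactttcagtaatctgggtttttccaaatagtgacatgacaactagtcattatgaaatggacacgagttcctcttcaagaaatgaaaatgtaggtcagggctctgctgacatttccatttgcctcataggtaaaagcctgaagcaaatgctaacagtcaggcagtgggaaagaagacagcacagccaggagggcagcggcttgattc
Il12rb1, the partner chain, was 4.76 to 5.14 in Batf3-/- migratory, 4.87 to 5.08 in WT migratory, 4.99 to 5.36 in Batf3-/- resident and 4.96 to 5.06 in WT resident DC1, and the 4 groups overlapped.

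Il1b, an inflammatory cytokine made as a precursor that caspase-1 cleaves, was lower in migratory DC1. It was 8.97, 8.73 and 8.14 in Batf3-/- migratory DC1, 8.12 and 7.67 in WT migratory DC1, 11.19, 10.95 and 10.92 in Batf3-/- resident DC1 and 10.55, 10.55 and 10.61 in WT resident DC1. The migratory arrays lay below the resident ones by 5.30-fold in Batf3-/- cells (-2.41 ± 0.20; limma, adjusted p = 1.86e-06) and by 6.38-fold in WT cells (-2.67 ± 0.22; adjusted p = 3.02e-06). In both gates every Batf3-/- array lay above every WT array, by 0.72 ± 0.22 in migratory DC1 (adjusted p = 0.0622) and 0.45 ± 0.20 in resident DC1 (adjusted p = 0.496), and neither difference passed the test. The migratory difference was called without Batf3-/- migratory replicate 3, at 0.95 with an adjusted p of 0.00239, and with the title code as a block, at 0.80 with 0.0195.

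Tnf, the founding cytokine of its family, was the 1 gene of the 10 called higher in Batf3-/- than in WT cells, and that in the migratory gate. It was 9.09, 8.36 and 7.73 in Batf3-/- migratory DC1, 6.58 and 7.40 in WT migratory DC1, 9.29, 9.52 and 8.98 in Batf3-/- resident DC1 and 8.64, 8.90 and 8.51 in WT resident DC1. In migratory cells it was 2.64-fold higher in Batf3-/- than in WT DC1 (1.40 ± 0.35; limma, adjusted p = 0.0301), and 2.51 and 0.96 under title codes a and b. In resident cells the Batf3-/- arrays were all above the WT arrays, by 0.58 ± 0.31 (adjusted p = 0.655). Migratory cells were below resident cells by 1.83-fold in Batf3-/- DC1 (-0.87 ± 0.31; adjusted p = 0.0455), where the arrays overlapped, and by 3.22-fold in WT DC1 (-1.69 ± 0.35; adjusted p = 0.00186), where they did not.

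The Tnf call between migratory genotypes was lost without WT migratory replicate 1 (0.99; limma, adjusted p = 0.245), without Batf3-/- migratory replicate 1 (1.05; 0.0944) and without Batf3-/- migratory replicate 2 (1.42; 0.0862). The SD of all values on an array also moved with the groups, at 2.07 to 2.16 in Batf3-/- migratory, 1.96 to 2.03 in WT migratory, 2.16 to 2.23 in Batf3-/- resident and 2.21 to 2.22 in WT resident DC1. With that SD as a term the Tnf difference was -0.046 between migratory genotypes and 0.70 between WT gates, and neither was called. SD and group cannot be told apart here. The call between the Batf3-/- gates was lost without Batf3-/- resident replicate 1 or 2 or Batf3-/- migratory replicate 2 or 3, with differences between -0.857 and -0.535.

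Early response genes that enzymatic tissue digestion can raise moved in the same direction as Il1b and Tnf. The mean log2 level of 17 such genes was 8.50 to 9.37 in Batf3-/- migratory, 8.40 to 8.59 in WT migratory, 9.81 to 10.07 in Batf3-/- resident and 9.69 to 9.92 in WT resident DC1. In migratory against resident cells 1 of the 17 was higher and 10 were lower in Batf3-/- DC1, where 36.6% of all genes were called. In WT DC1 none was higher and 14 were lower, where 49.2% of all genes were called. In migratory cells 4 were higher in Batf3-/- than in WT DC1, where 9.41% of all genes were called. Of 8 tested macrophage and monocyte markers, 2 were called higher in Batf3-/- than in WT migratory DC1 and none lower. These were C1qa (0.92 ± 0.20) and C1qb (0.61 ± 0.17). Between the gates, 4 of the 8 were higher and 3 lower in migratory Batf3-/- cells, where 36.6% of all genes were called. In WT cells 2 were higher and 3 lower, where 49.2% were called. The part of either list in the Il1b and Tnf results was not tested.

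The gene starts of both are on the minus strand, Tnf at chr17:35201958-35202257 and Il1b at chr2:129371090-129371389. The Tnf window holds GGAGATTCC, in capitals, a match to GGAANNTCC on the minus strand of the window from position -212, and the Il1b window holds none of the 3 motifs.
Tnf: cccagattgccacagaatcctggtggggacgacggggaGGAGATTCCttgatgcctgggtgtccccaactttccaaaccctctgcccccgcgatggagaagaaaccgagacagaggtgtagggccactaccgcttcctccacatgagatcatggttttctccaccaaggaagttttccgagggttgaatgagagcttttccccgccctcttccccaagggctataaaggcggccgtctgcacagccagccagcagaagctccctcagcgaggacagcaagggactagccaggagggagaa
Il1b: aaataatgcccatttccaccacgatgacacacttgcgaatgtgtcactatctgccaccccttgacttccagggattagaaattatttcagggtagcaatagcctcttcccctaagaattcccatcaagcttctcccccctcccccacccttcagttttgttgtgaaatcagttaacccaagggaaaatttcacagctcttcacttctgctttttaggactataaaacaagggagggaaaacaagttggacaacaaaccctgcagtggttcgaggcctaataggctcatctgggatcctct
Il12b, Ebi3 and Il18 also hold none in their windows, and each of the 2 Il12a windows holds 1 match to GGAANNTCC.

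Il18, the other caspase-1 substrate, which with IL-12 induces interferon gamma, changed less. It was 6.35, 6.26 and 6.57 in Batf3-/- migratory DC1, 6.95 and 6.49 in WT migratory DC1, 6.73, 7.13 and 6.58 in Batf3-/- resident DC1 and 7.46, 7.46 and 7.05 in WT resident DC1. Migratory cells lay below resident cells without overlap in both genotypes, with differences of -0.43 ± 0.20 in Batf3-/- DC1 (limma, adjusted p = 0.111) and -0.60 ± 0.22 in WT DC1 (adjusted p = 0.0369), of which the second was called. After quantile normalization was repeated, which moved the median difference of all genes in the WT comparison by 0.19, the WT difference of Il18 was -0.12 and not called. It also lost its call without WT resident replicate 1 or 2 (-0.54 each) and without WT migratory replicate 2 (-0.37). Between genotypes it was -0.33 ± 0.22 in migratory and -0.51 ± 0.20 in resident DC1, neither called.

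The receptors, antagonists and processing genes of IL-1 and IL-18 split. In migratory against resident DC1, 4 of 10 tested were higher and 3 lower in Batf3-/- cells, and 5 higher and 2 lower in WT cells, where 36.6% and 49.2% of all genes were called. Nlrp3, the sensor of the inflammasome that activates caspase-1, was lower, at -3.60 ± 0.32 in Batf3-/- and -3.09 ± 0.36 in WT cells (limma, adjusted p = 3.39e-06 and 3.18e-05), and so was Nlrp1b, another inflammasome sensor, at -2.52 ± 0.24 and -2.01 ± 0.27. Il18r1, the IL-18 receptor chain, was higher by 1.30 ± 0.21 and 1.75 ± 0.23. Casp4, known in mice as caspase-11, was 2.64 ± 0.22 higher in WT migratory DC1, and it was -0.92 ± 0.22 from WT in Batf3-/- migratory DC1 (adjusted p = 0.0276). Gsdmd, the pore-forming gasdermin D, was 1.22 ± 0.34 higher in Batf3-/- than in WT migratory DC1 (adjusted p = 0.0414).

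Among 11 genes of TNF shedding, receptors and signalling, 3 were higher and 1 lower in Batf3-/- migratory against resident DC1, and 3 were higher and 3 lower in WT cells, counts near the shares of all genes called (36.6% and 49.2%). Tnfrsf1b, which encodes TNF receptor 2, was higher by 1.56 ± 0.29 and 1.60 ± 0.33 (limma, adjusted p = 0.00116 and 0.00175). Tnfrsf1a, which encodes TNF receptor 1, was lower, at -1.57 ± 0.28 and -1.72 ± 0.31. Adam17, the protease that sheds TNF from the membrane, was -1.07 ± 0.25 in WT migratory against resident DC1 and 1.13 ± 0.25 higher in Batf3-/- than in WT migratory DC1 (adjusted p = 0.021), where Rhbdf2, which brings ADAM17 to the surface, was 0.63 ± 0.17 higher.

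**Figure D3:**
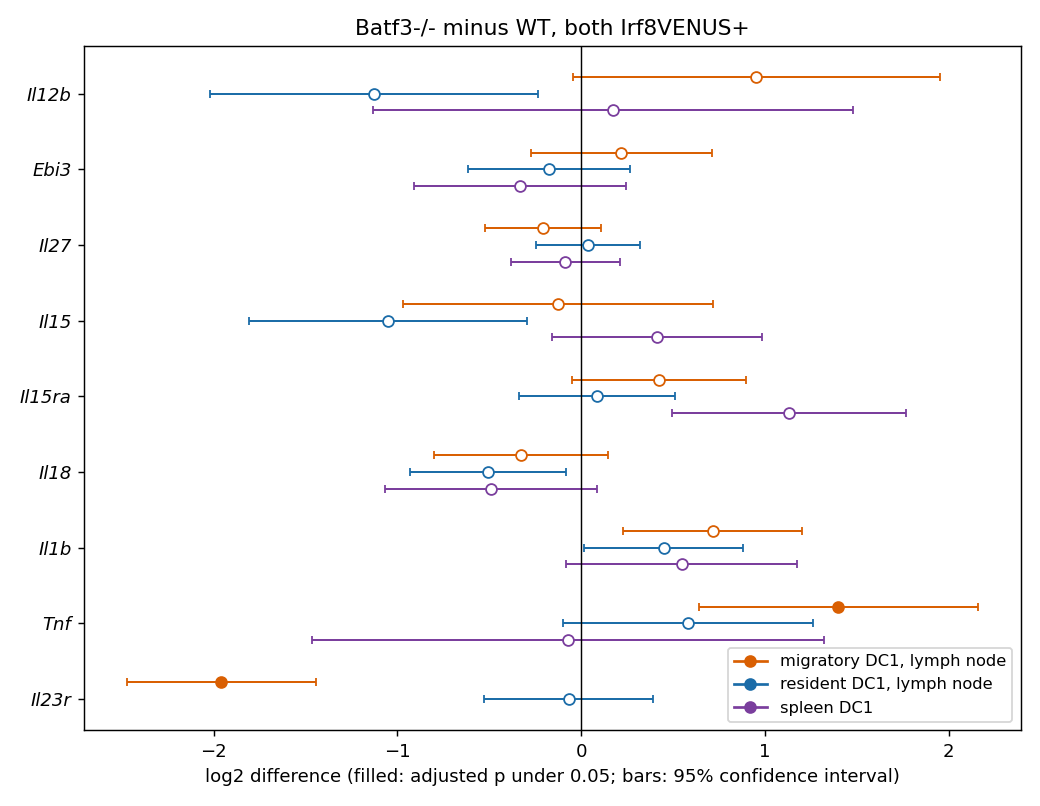
Batf3-/- minus WT log2 difference (x axis), both Irf8VENUS+, in migratory lymph node (orange), resident lymph node (blue) and spleen (purple) DC1, with 95% confidence intervals; filled points have an adjusted p under 0.05. Only Tnf (1.40) and Il23r (-1.96), both in migratory DC1, are filled, and Il12b lies on opposite sides of 0 in migratory (0.95) and resident (-1.13) DC1.

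For the 6 genes whose lymph node group means spanned at least 1 on the log2 scale, the 3 genes with the most similar profile over the 11 arrays were listed by Pearson r, as a description of arrays that share groups. They were Cd44, Arpin and A3galt2 for Il12b (0.936, 0.926 and 0.918), Slc44a1, Ift43 and Mrpl14 for Il15 (0.989, 0.985 and 0.980), and Phip, Birc2 and Rasa2 for Il15ra (0.993, 0.992 and 0.991). For Il1b they were Kit, Cep128 and Elmo1 (0.991, 0.991 and 0.988), for Tnf Prdm10, Exoc2 and Glul (0.979, 0.975 and 0.973) and for Il23r Selenom, Gal and Colq (0.983, 0.973 and 0.973). Cd44 encodes a hyaluronan receptor, Birc2 an inhibitor of apoptosis that acts in NF-kB signalling, and Kit the stem cell factor receptor.

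In spleen 8 of the 10 genes passed the filter on low values. Il12a reached the median of the table on 1 array and Il23r, at 3.66 to 3.94 in Batf3-/- Irf8VENUS+ DC1, 3.52 to 3.94 in WT Irf8VENUS+ DC1 and 3.72 to 3.73 in WT Irf8VENUS- DC1, on none. None of the 8 was called by limma in any spleen comparison. Of 12875 genes tested, 0.738% were called between Batf3-/- Irf8VENUS+ and WT Irf8VENUS+ DC1, 0.0233% between WT Irf8VENUS+ and WT Irf8VENUS- DC1 and 0.559% between Batf3-/- Irf8VENUS+ and WT Irf8VENUS- DC1, comparisons that share arrays. At an unadjusted p under 0.05 there were 1, 0 and 1 of the 8 genes, and the 1 was Il15ra both times, while of all 12875 genes there were 1343, 1018 and 1191.

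**Figure D4:**
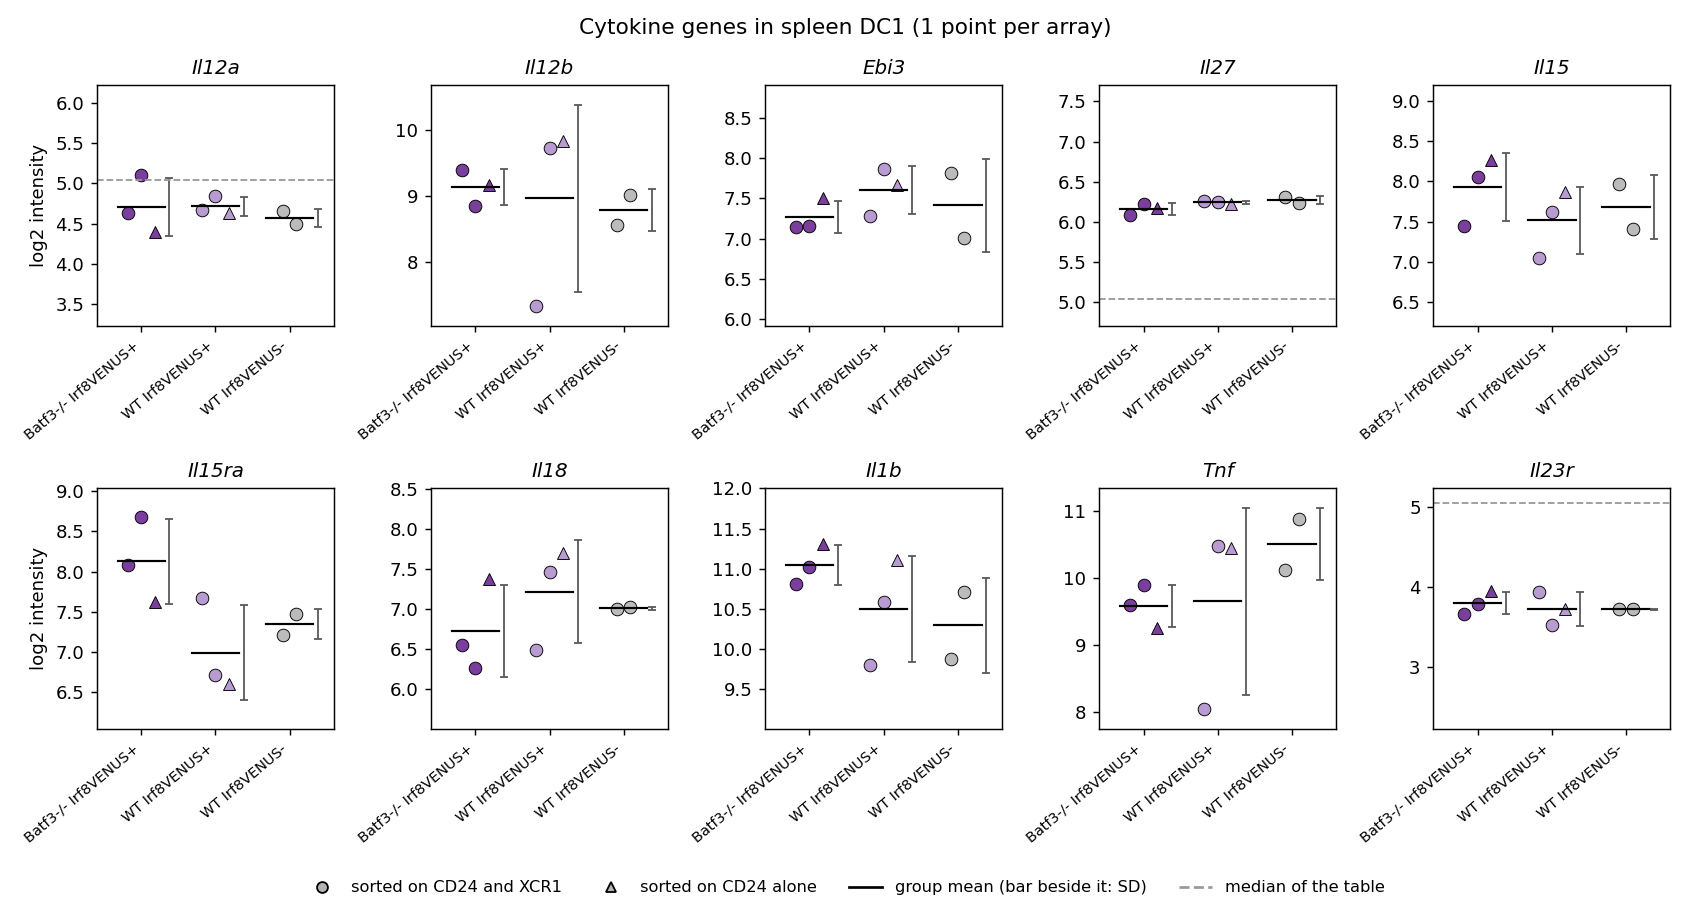
Log2 intensity (y axis, 1 panel per gene with its own range) of the 10 genes in Batf3-/- Irf8VENUS+, WT Irf8VENUS+ and WT Irf8VENUS- spleen DC1; each point is an array, its shape gives the sort gate, the line is the group mean and the bar beside it the SD. The groups overlap for most genes, and WT Irf8VENUS+ replicate 1 is far below the others of that group for Il12b (7.33) and Tnf (8.05).

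Il15ra came nearest to a spleen call. It was 8.08, 8.68 and 7.62 in Batf3-/- Irf8VENUS+ DC1, 7.67, 6.71 and 6.60 in WT Irf8VENUS+ DC1 and 7.22 and 7.48 in WT Irf8VENUS- DC1. The Batf3-/- arrays lay above the others but for replicate 3, which was below WT Irf8VENUS+ replicate 1. With the sort gate in the fit, it was 1.13 ± 0.28 higher than in WT Irf8VENUS+ DC1 (2.19-fold; limma, adjusted p = 0.153), with 1.19 in the gate on CD24 with XCR1 (2 arrays against 2) and 1.02 in the gate on CD24 alone (1 against 1). Without WT Irf8VENUS+ replicate 1 the difference was 1.39 and the adjusted p 0.0452. Against WT Irf8VENUS- DC1, all of whose arrays it exceeded, it was 1.00 ± 0.32 (adjusted p = 0.347). Of 22 tested maturation genes, 2 were called higher in Batf3-/- than in WT Irf8VENUS+ DC1, where 0.738% of all genes were called. These were Fscn1 (1.41 ± 0.19) and Tmem123 (1.30 ± 0.21). Ccr7, which was not called, was 9.89 to 10.47 in Batf3-/- Irf8VENUS+, 7.39 to 8.99 in WT Irf8VENUS+ and 9.09 to 9.84 in WT Irf8VENUS- spleen DC1. The part of the maturation genes in the Il15ra values was not tested.

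Il15 was 7.45, 8.06 and 8.27 in Batf3-/- Irf8VENUS+, 7.05, 7.62 and 7.87 in WT Irf8VENUS+ and 7.96 and 7.40 in WT Irf8VENUS- spleen DC1, and all 3 groups overlapped (0.41 ± 0.25 against WT Irf8VENUS+; limma, adjusted p = 0.637). Il12b was 9.39, 8.84 and 9.16, then 7.33, 9.72 and 9.83, then 8.56 and 9.01 in the same order of groups. Its spread in WT Irf8VENUS+ DC1, an SD of 1.41 against 0.28 in Batf3-/- Irf8VENUS+ DC1 (n = 3 each), came from the 1 low array, and its genotype difference of 0.17 ± 0.57 has a 95% confidence interval from -1.14 to 1.48. Tnf behaved likewise, with 9.59, 9.89 and 9.26, then 8.05, 10.47 and 10.44, then 10.12 and 10.88, and a genotype difference of -0.07 ± 0.60 (interval -1.47 to 1.32). Without the low array these differences were -0.63 for Il12b and -0.92 for Tnf, and neither was called (adjusted p = 0.274 and 0.138).

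Il1b was 10.80, 11.02 and 11.31 in Batf3-/- Irf8VENUS+, 9.81, 10.58 and 11.11 in WT Irf8VENUS+ and 9.88 and 10.71 in WT Irf8VENUS- spleen DC1. The Batf3-/- arrays lay above both WT Irf8VENUS- arrays and overlapped those of WT Irf8VENUS+, with differences of 0.53 ± 0.32 and 0.55 ± 0.27 (limma, adjusted p = 0.736 and 0.549). Il18 was 6.55, 6.27 and 7.37, then 6.49, 7.46 and 7.70, then 7.00 and 7.02, and overlapped throughout. In both it was the array sorted on CD24 alone that was highest within each Irf8VENUS+ group.

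Ebi3 was 7.14, 7.16 and 7.50 in Batf3-/- Irf8VENUS+, 7.28, 7.86 and 7.66 in WT Irf8VENUS+ and 7.82 and 7.00 in WT Irf8VENUS- spleen DC1, a genotype difference of -0.33 ± 0.25 (limma, adjusted p = 0.710). Its second, dimmer spleen probe set was 5.66, 6.23 and 6.97, then 7.01, 6.78 and 7.18, then 6.91 and 6.31, so both probe sets had lower values in the Batf3-/- group than in WT Irf8VENUS+ DC1 on average, with overlap. Il27 was 6.08 to 6.23, 6.23 to 6.26 and 6.24 to 6.31 in the 3 groups. WT Irf8VENUS+ minus WT Irf8VENUS- gave differences between -0.97 for Tnf and 0.12 for Ebi3, all with overlapping arrays. Irf8 itself was 12.03 to 12.36 in Batf3-/- Irf8VENUS+, 12.21 to 12.43 in WT Irf8VENUS+ and 11.38 to 11.46 in WT Irf8VENUS- spleen DC1. Against WT Irf8VENUS- DC1 it was 0.83 ± 0.10 higher in WT Irf8VENUS+ (limma, adjusted p = 0.0601) and 0.66 ± 0.10 higher in Batf3-/- Irf8VENUS+ DC1 (adjusted p = 0.0326). Both comparisons with WT Irf8VENUS- DC1 thus also differed in Irf8 level.

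In the wider spleen lists, Stat4 was the member of the IL-12 family partners that was called, of 10 tested. It was 1.06 ± 0.16 higher in Batf3-/- Irf8VENUS+ than in WT Irf8VENUS+ DC1 (limma, adjusted p = 0.0371) and 1.57 ± 0.19 higher than in WT Irf8VENUS- DC1 (adjusted p = 0.0165). Il2rb, at 4.09 to 4.63 on the spleen arrays, did not pass the filter, so the tested genes of the IL-2 and IL-15 receptor list there were others. None of the 5 tested genes of that list, the 10 IL-1 and IL-18 genes or the 11 TNF pathway genes was called by limma in a spleen comparison. Between Batf3-/- and WT Irf8VENUS+ DC1, 3, 4 and 3 of them had an unadjusted p under 0.05, as did 1343 of all 12875 genes. The medians of these 3 lists between Batf3-/- and WT Irf8VENUS+ DC1 were 1.17, 0.25 and 0.33, against -0.02 over all genes tested. Of the 10 IL-12 family partners, 6 had an unadjusted p under 0.05 there, and their median was -0.02.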

How the data were processed

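RNA of sorted mouse DC1 was measured on Affymetrix arrays. The authors' processing was RMA, per the submitters' processing notes (version not given in the sources used here). The deposited spleen values were linear intensities (1.85 to 13035.5; 8 arrays) and the deposited SDLN values were log2 intensities (1.35 to 13.96; 11 arrays); log2 was taken of the spleen values here. Neither table gives background per probe, and precision is limited by how few arrays there are.

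Probe sets with 1 symbol in the platform annotation were kept (23521 of 41345 in spleen and 21789 of 35556 in SDLN; 1814 and 1621 had several, 16010 and 12146 none), symbols were updated by gene identifier (23328 and 21698 matched), and each gene was its brightest probe set. Tests used limma 3.58.1 in R 4.3.3 (eBayes with trend), all arrays of a table in 1 fit, the spleen fit with the sort gate as a term, so its estimates against WT Irf8VENUS- differ from plain differences. The fit was tested on simulated data.

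The members and the gene lists were chosen with earlier results of these data known. Named were the 10 members, Batf3, Irf8 and Xcr1, up to 2 called genes per list, direction and comparison, and 3 most similar genes per member; other genes (Il23a, Il2rb, Il12rb1 and Il17a) were added for their pairing with members. Title codes a, b and c stand for replicates 1, 2 and 3 in SDLN, and the labels do not say what they mark. Deviations from group means correlated between same-numbered Batf3-/- arrays of the 2 gates (0.416, 0.210 and 0.479). Differently numbered ones gave 0.184 and 0.218 between replicates 1 and 2, and between -0.451 and -0.279 with replicate 3. Pairing by number was thus not shown for replicate 2, and pairing changed no call there. Alternatives were other filters, normalizations, probe rules, array weights, the SD of an array's values as a term, no trend, a replicate block, fewer groups, other gate settings and leaving out each replicate.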

Additional observations from a re-analysis of the deposited data

Results flagged for a closer look

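For Il23r the test of the genotype effect between the gates was called, but its value largely repeats the migratory difference. Il23r passed the filter only through its migratory arrays. Both resident groups lay below the table median, where a genotype difference could hardly show. The difference between the Batf3-/- effects, migratory minus resident, was -1.89 ± 0.32 on the log2 scale (limma, adjusted p = 0.0212). In migratory DC1 all 3 Batf3-/- arrays lay below both WT arrays (-1.96 ± 0.24), and in resident DC1 the genotypes overlapped (-0.07 ± 0.21). Under the 21 alternatives run the value ran between -2.33 and -1.46 and the call was lost in 6.

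For Il12b all Batf3-/- arrays lay above the WT arrays in migratory DC1 and below them in resident DC1. The difference between the effects was 2.08 ± 0.62 and did not pass the test (limma, adjusted p = 0.108). It was called with a replicate block (2.39; adjusted p = 0.0185) and without Batf3-/- migratory replicate 3 (2.41; adjusted p = 0.0236), and under the 21 alternatives run it ranged between 0.34 and 2.55.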

How the results depend on the processing

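Of 69 tests of a member in a comparison, 17 were called, of which 10 were called under every alternative run and 7 lost the call or turned under at least 1. These counts pool comparisons that share arrays and in which 0.0233% to 49.2% of all genes were called. Between the gates 7 members were called in each genotype, where 36.6% (Batf3-/-) and 49.2% (WT) of all genes were called. Of the 52 not called, 10 were called under at least 1 alternative. The 10 include Il15, Il15ra and Il1b between migratory and resident DC1 in both genotypes; those of Il23r between the gates are also counted but say nothing of stability, since the filter fixed them. With the SD of an array's values as a term, the members called were 1 in resident Batf3-/- minus WT (Tnf, 0.73; limma, adjusted p = 0.0338), 0 in migratory Batf3-/- minus WT (Il23r, -1.79; 0.101), 4 in WT migratory minus resident and 0 in the difference between effects (Il23r, -1.70; 0.182). Tnf turned under it to -0.046 between migratory genotypes and to 0.70 between the WT gates, with neither called. With array weights 1 was called between Batf3-/- and WT Irf8VENUS+ spleen (Il15ra, 1.41; 0.0266) and 1 between resident genotypes (Il1b, 0.50; 0.0186). With only the groups compared, 0 were called between migratory genotypes, where all genes called were 7 in place of 1123. The replicate numbers could not be shown to pair the arrays, though same-numbered Batf3-/- arrays of the 2 gates correlated. With a replicate block 4 were called between migratory genotypes (adding Il12b, 1.26 and 0.0177, and Il1b, 0.80 and 0.0195) and 2 in the difference between effects. Il18 between the WT gates lost its call in 6 of 15 alternatives and Tnf between the Batf3-/- gates in 8 of 16. Leaving out 1 replicate gave 0 to 1 members called between Batf3-/- and WT Irf8VENUS+ spleen, 0 in both other spleen comparisons, 0 to 1 between resident and 1 to 3 between migratory genotypes, 6 to 8 between the gates in either genotype and 0 to 2 in the difference between effects, where the Il23r call was lost without WT migratory replicate 1, Batf3-/- resident replicate 1 or 2, or WT resident replicate 2 or 3 (adjusted p between 0.0507 and 0.074). All genes called between migratory genotypes ran between 7 and 3570 (3570 without Batf3-/- migratory replicate 3, 109 without WT migratory replicate 1), and those in the difference between effects between 17 and 1713. Over all alternatives run, all genes called between the gates ran between 3452 and 5350 in Batf3-/- cells and between 1262 and 8873 in WT cells. They ran between 95 and 981 between resident genotypes and between 24 and 262 between Batf3-/- and WT Irf8VENUS+ spleen. The cause of these changes was not tested.

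With 2 or 3 arrays a group, differences of about the size of the intervals given could not be shown, and levels below the table median (Il12a, and Il23r outside migratory DC1) have no measure of background.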
